A study of Mus musculus with 6 samples.

Results

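Wnt proteins are secreted, lipid-modified signals that bind a Frizzled receptor together with a co-receptor. In the beta-catenin branch the co-receptor is Lrp5 or Lrp6, the complex of Axin, Apc and Gsk3 kinases stops marking beta-catenin for destruction, and beta-catenin enters the nucleus and acts with Tcf and Lef factors. In the other branch a Wnt such as Wnt5a acts through Ror receptors on cell shape and movement. In mesenchymal cells both branches are known to bear on the choice between fat, bone and cartilage fates.

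The genes described here are the Wnt ligands, their Frizzled receptors and co-receptors, the secreted antagonists, and the intracellular and nuclear parts of the beta-catenin branch. They were picked by symbol from the platform's probe annotation, with earlier results of these data known. The set holds 49 of the 19057 genes measured, on 92 probes: 19 Wnt ligands, 10 Frizzled receptors, 4 co-receptors (Lrp5, Lrp6, Ror1 and Ror2), 9 secreted antagonists of the Sfrp, Dkk and Wif families, and 7 intracellular or nuclear genes (Axin1, Axin2, Ctnnb1, Lef1, Nkd1, Tcf7l1 and Tcf7l2). Tcf7 was not analysed here.

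The values come from 6 Illumina bead arrays hybridised with RNA of mouse embryonic fibroblasts, connective tissue cells cultured from the embryo. There were 3 arrays of Lasp1-/- cells, in which both copies of the actin-binding LIM and SH3 gene Lasp1 are disrupted, and 3 of Lasp1+/+ cells. Both genotypes carry the strain label C57Bl/6NCr and neither received a treatment. The labels do not say whether the arrays of a genotype came from separate embryos or cultures, so a p-value here reflects only how far these arrays spread, and that spread may be technical.

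At its brightest probe Lasp1 read 51904, 51019 and 49769.9 in Lasp1-/- arrays, against 135295, 148208 and 148809 in Lasp1+/+ arrays (log2 difference -1.50 ± 0.07 SE, limma adjusted p = 1.17e-05). A two-sided exact permutation test of that probe gave 0.1, which 3 arrays against 3 cannot go below. All 11 fibroblast markers examined averaged over 990.7, the median over all probes of their mean, in 1 or both genotypes, and 5 of them were lower in Lasp1-/- arrays. The arrays have 1 common median, and how much of a value near it is background light is not known here. If part of it is, the fold change of a dim gene is understated. Lasp1-/- replicate 1 was the highest of its group in 64.4% of genes above that median and Lasp1+/+ replicate 2 in 62.3%, and among the Wnt genes above it in 17 and 20 of 34. The part of this difference between arrays in the results below was not tested, and values after quantile normalization, which gives all arrays 1 distribution, are printed where they change the call of a gene named here.

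Between the genotypes, 2 of the 49 genes rose and 4 fell in Lasp1-/- cells. The ligands Wnt10b and Wnt10a rose. The ligand Wnt4, the receptor Fzd2, the secreted antagonist Sfrp2 and the transcriptional repressor Tcf7l1 fell. A gene was called at a limma adjusted p under 0.05 over all genes. The 6 called genes are 12.2% of the set, and 6.28% of all 19057 genes were called, 2.19% as higher and 4.08% as lower. The 3 arrays of one genotype lay entirely above or below those of the other in 10 of the 49 genes, or 20.4%, a share near the 21.3% of all genes (7.34% higher and 14.0% lower). Among the 12613 genes above the probe median in 1 or both genotypes, 9.48% were called and 27.6% had groups apart. The set has 34 such genes, and all 6 called genes are among them. Of the 10 with groups apart, Fzd9 and Wnt7a are not. The median log2 difference was 0.01 over the set and -0.02 over all genes.

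**Figure D1:**
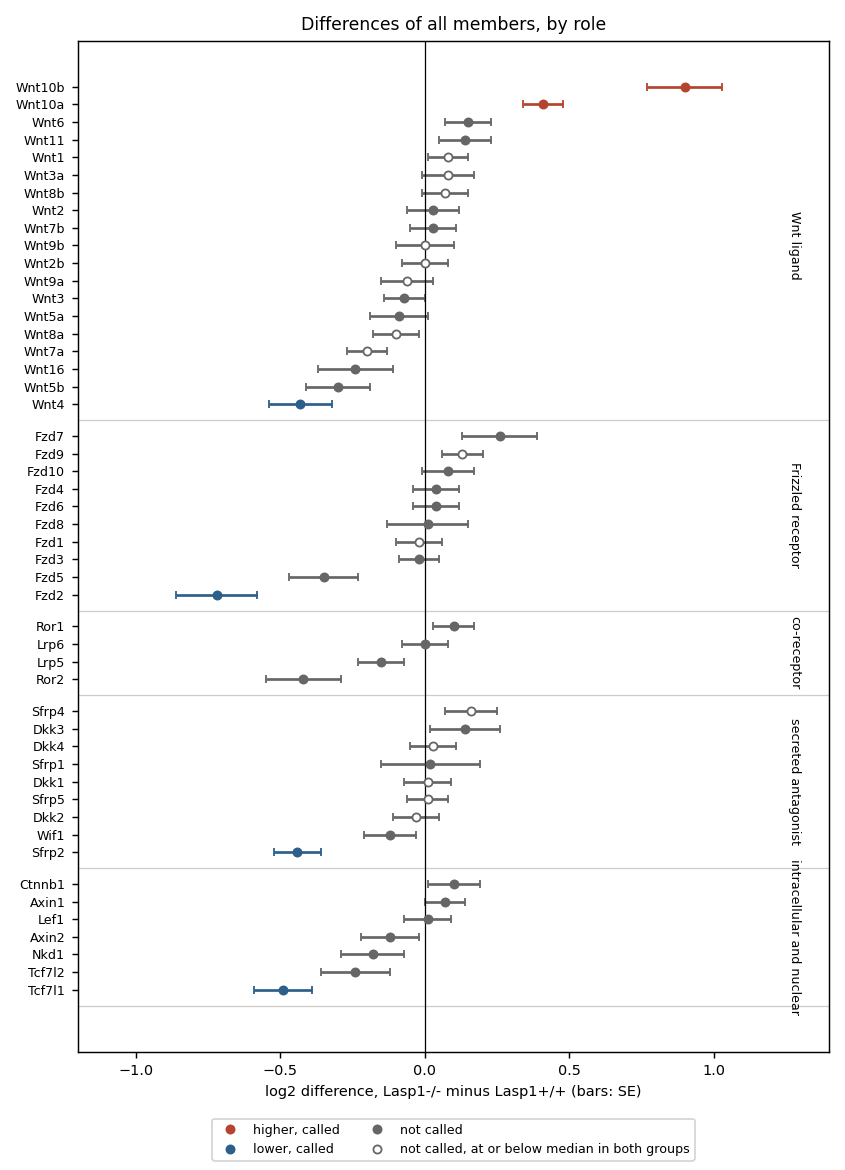
Log2 difference in probe intensity (Lasp1-/- minus Lasp1+/+, horizontal axis) of each of the 49 genes, in blocks by role. Points are limma estimates from 3 arrays per genotype and bars are their SE. Red and blue points passed the test, grey points did not, and open points were at or below the probe median in both genotypes. Wnt10b at 0.90 and Fzd2 at -0.72 lie farthest from 0.

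Of the 19 Wnt ligands, 2 rose, 1 fell and 16 did not pass the test, and 8 were at or below the probe median in both genotypes. Wnt10b, a ligand of the beta-catenin branch known to hold back fat cell formation in mouse preadipocytes, read 1951, 1340.4 and 1586 in Lasp1-/- arrays, against 896, 908 and 787 in Lasp1+/+ arrays. Every Lasp1-/- array was above every Lasp1+/+ array, and the Lasp1+/+ values were below the probe median. The log2 difference was 0.90 ± 0.13 SE, or 1.86-fold (limma adjusted p = 0.00377). After a background correction with limma's normexp method it was 2.12 on the log2 scale, or 4.36-fold (limma adjusted p = 0.00581). The direction was the same on both scales, and the size was not. The call held without each array in turn (limma adjusted p of 0.00211 to 0.0335). A second, dimmer Wnt10b probe read 735, 779 and 707 in Lasp1-/- arrays and 714, 765 and 709 in Lasp1+/+ arrays, which overlap below the probe median.

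Wnt10a, the closest relative of Wnt10b, read 1432, 1372 and 1403 in Lasp1-/- arrays, against 1108, 1016 and 1049 in Lasp1+/+ arrays. The groups did not overlap, and the Lasp1-/- arrays were close to each other. Wnt10a had a log2 difference of 0.41 ± 0.07 SE, or 1.33-fold (limma adjusted p = 0.00967), and 1.81-fold after normexp. The call was lost, with the difference at 0.41 and 0.40, without Lasp1-/- replicate 3 (limma adjusted p = 0.0563) and without Lasp1+/+ replicate 3 (limma adjusted p = 0.0577).

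Wnt4, a ligand of kidney, gonad and muscle development, read 1468, 1243 and 1351 in Lasp1-/- arrays, against 1647, 2106 and 1755 in Lasp1+/+ arrays. All Lasp1-/- arrays were lower, and Lasp1+/+ replicate 2 stood highest. Wnt4 had a log2 difference of -0.43 ± 0.11 SE, or 1.35-fold lower (limma adjusted p = 0.0446). A second Wnt4 probe read 1151, 1222 and 1149 in Lasp1-/- arrays and 1263, 1486 and 1408 in Lasp1+/+ arrays, again without overlap, though it did not pass on its own (log2 difference -0.24, limma adjusted p = 0.155 over all probes). The call of Wnt4 was the least stable of the 6. It did not pass with the mean of both probes (limma adjusted p = 0.0505), after normexp (0.0979), or without Lasp1-/- replicate 2 (0.172), Lasp1-/- replicate 3 (0.171), Lasp1+/+ replicate 2 (0.0661) or Lasp1+/+ replicate 3 (0.136), and its log2 difference without single arrays ranged from -0.51 to -0.33.

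**Figure D2:**
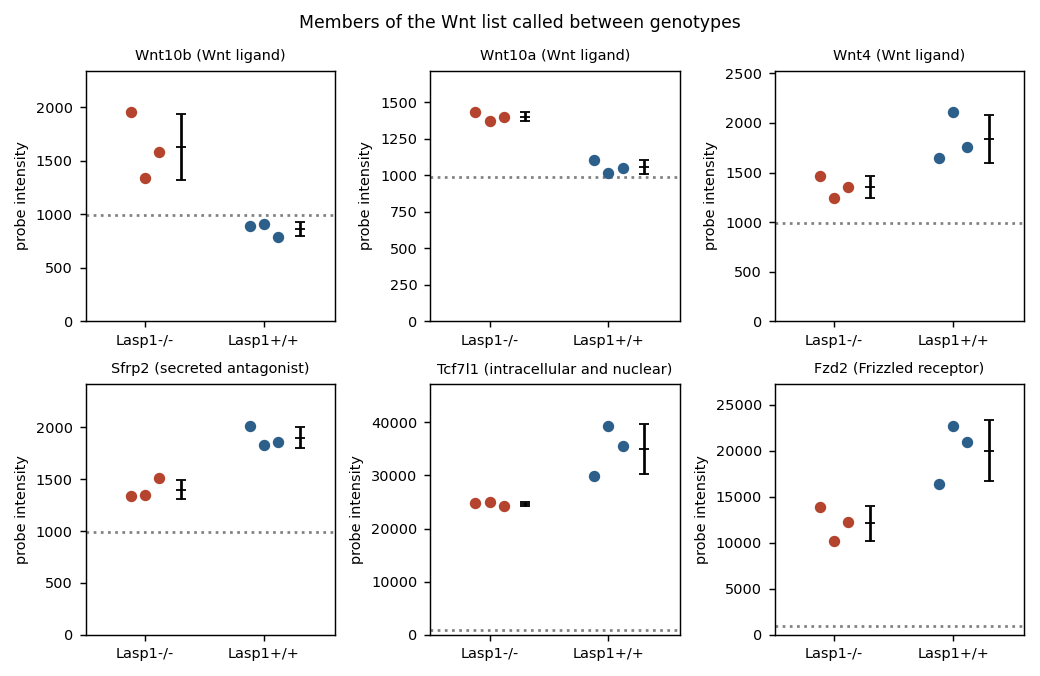
Probe intensity (linear scale, vertical axis from 0) of the 6 Wnt genes that passed the test, with a point for each array, Lasp1-/- in red and Lasp1+/+ in blue, beside the mean and SD of each group (n = 3). The dotted line is the median of all probe means, 990.7. In each panel the 3 arrays of one genotype lie apart from those of the other, and for Wnt10b the Lasp1+/+ points (787 to 908) lie under the line.

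Wnt5a, the ligand best known for the Ror branch, was bright and overlapped between genotypes. It read 50097, 40775 and 46480 in Lasp1-/- arrays, against 43728, 50081 and 51850.0 in Lasp1+/+ arrays, a log2 difference of -0.09 with a 95% limma interval of -0.31 to 0.14. A dimmer Wnt5a probe, annotated to another transcript record, read 1728, 1573 and 1318 in Lasp1-/- arrays and 1158, 1385 and 1058 in Lasp1+/+ arrays, overlapping as well. Wnt5b, its closest relative, averaged 1660.3 ± 110.7 in Lasp1-/- arrays and 2061.5 ± 286.6 in Lasp1+/+ arrays (SD, n = 3 each), with arrays that overlapped and a log2 difference of -0.30 ± 0.11 SE (limma adjusted p = 0.155). It passed after quantile normalization (-0.28, limma adjusted p = 0.0454) and without Lasp1+/+ replicate 1 (-0.41, limma adjusted p = 0.0279).

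The other ligands above the probe median in at least 1 genotype were mostly close to it. Wnt16 averaged 1343 ± 132.2 in Lasp1-/- arrays and 1596 ± 314.5 in Lasp1+/+ arrays (SD, n = 3 each), with Lasp1+/+ replicate 2 alone at 1956. Wnt2 averaged 1292 and 1263, Wnt6 1097 and 989.5, Wnt11 1006 and 910.2, Wnt7b 993 and 972, and Wnt3 949.5 and 999 in Lasp1-/- and Lasp1+/+ arrays, and none of these passed. Wnt1, Wnt2b, Wnt3a, Wnt7a, Wnt8a, Wnt8b, Wnt9a and Wnt9b were at or below the median in both genotypes, with values of 769 to 1063 in Lasp1-/- arrays and 789.9 to 1047 in Lasp1+/+ arrays. At this signal a missing call says little about them.

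Of the 10 Frizzled receptors, 1 fell and 9 did not pass. Fzd2, a receptor used by Wnt5a among others, read 13908, 10168 and 12309 in Lasp1-/- arrays, against 16358, 22737 and 20997 in Lasp1+/+ arrays. The groups did not overlap and the signal was far above the probe median in both. Fzd2 had a log2 difference of -0.72 ± 0.14 SE, or 1.65-fold lower (limma adjusted p = 0.0185), the largest fall in the set. The limma adjusted p was 0.0717 without Lasp1-/- replicate 2, 0.0914 without Lasp1-/- replicate 3, 0.109 without Lasp1+/+ replicate 3 and 0.0811 after normexp, with log2 differences of -0.60, -0.74, -0.68 and -0.75.

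Fzd5 and Fzd7 were the other bright receptors. Fzd5 read 10575, 8878 and 9958 in Lasp1-/- arrays, against 10586, 14199 and 12812 in Lasp1+/+ arrays. The groups did not overlap, but Lasp1-/- replicate 1 and Lasp1+/+ replicate 1 were nearly equal. Its log2 difference was -0.35 ± 0.12 SE (limma adjusted p = 0.132), and it passed without Lasp1+/+ replicate 1 (-0.46, limma adjusted p = 0.0219). The other 3 Fzd5 probes lay between 698 and 1287 in all arrays. Fzd7 read 27855, 19504 and 26137 in Lasp1-/- arrays, against 19144, 21701 and 19884 in Lasp1+/+ arrays, with Lasp1-/- replicate 2 inside the Lasp1+/+ range. The log2 difference of Fzd7 was 0.26 ± 0.13 SE (limma adjusted p = 0.333), and it passed after quantile normalization (0.36, limma adjusted p = 0.0321).

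Fzd8 averaged 2623 ± 254.0 in Lasp1-/- arrays and 2639 ± 504.1 in Lasp1+/+ arrays, Fzd6 2419.6 ± 115.5 and 2361 ± 115.3, and Fzd3 1702 ± 73.8 and 1726 ± 22.5 (SD, n = 3 each). Their 95% limma intervals were -0.31 to 0.32, -0.13 to 0.21 and -0.18 to 0.14 on the log2 scale. Fzd10 (1166 and 1109.8) and Fzd4 (1052 and 1023) were near the probe median in Lasp1-/- and Lasp1+/+ arrays, and Fzd1 and Fzd9 were at or below the median in both genotypes, at 821 to 1031 over all arrays.

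None of the 4 co-receptors passed in limma on the deposited scale, and 1 of them, Ror2, had an unadjusted p under 0.05. Ror2, the receptor kinase of the Wnt5a branch, read 11995, 10584 and 9877 in Lasp1-/- arrays, against 12002, 17493 and 14234 in Lasp1+/+ arrays. All Lasp1-/- arrays were lower, though Lasp1-/- replicate 1 and Lasp1+/+ replicate 1 were nearly equal. The log2 difference was -0.42 ± 0.13 SE (limma adjusted p = 0.118). It was called after quantile normalization (-0.31, limma adjusted p = 0.0316), and without Lasp1+/+ replicate 1 (-0.55, limma adjusted p = 0.0209). Lrp5 averaged 1216 ± 30.6 in Lasp1-/- arrays and 1347 ± 102.0 in Lasp1+/+ arrays, Lrp6 1178 ± 89.4 and 1177 ± 39.0, and Ror1 1062 ± 9.1 and 993 ± 63.4 (SD, n = 3 each), all close to the probe median.

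Of the 9 secreted antagonists, 1 fell and 8 did not pass. Sfrp2, a soluble protein with a Frizzled-like domain that binds Wnts, read 1339.5, 1351 and 1507 in Lasp1-/- arrays, against 2016, 1830.3 and 1860.5 in Lasp1+/+ arrays. The groups did not overlap, with a gap wider than the spread within either. The log2 difference was -0.44 ± 0.08 SE, or 1.36-fold lower (limma adjusted p = 0.0115), and -0.75 after normexp (limma adjusted p = 0.0375). The limma adjusted p was 0.057 without Lasp1-/- replicate 2 and 0.0563 without Lasp1+/+ replicate 3, with log2 differences of -0.42 and -0.46.

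The bright antagonists Sfrp1 and Dkk3 did not pass. Sfrp1 read 26368, 23186 and 27869.9 in Lasp1-/- arrays, against 18719, 31758 and 27279.8 in Lasp1+/+ arrays, and the wide Lasp1+/+ range left a 95% limma interval of -0.36 to 0.41 on the log2 scale. Dkk3, a divergent member of the Dickkopf family, read 30459.7, 33812 and 27306 in Lasp1-/- arrays, against 27915, 31636 and 23998 in Lasp1+/+ arrays (log2 difference 0.14, interval -0.13 to 0.40). A second Dkk3 probe of like brightness averaged 31576 in Lasp1-/- and 26487 in Lasp1+/+ arrays. There the groups overlapped as well (0.26, limma adjusted p = 0.226 over all probes). Wif1 averaged 1109.7 and 1203 in Lasp1-/- and Lasp1+/+ arrays. Dkk1, Dkk2, Dkk4, Sfrp4 and Sfrp5 were at or below the median in both genotypes, at 768 to 979.7 in Lasp1-/- arrays and 733 to 1068 in Lasp1+/+ arrays.

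Of the 7 intracellular and nuclear genes, 1 fell and 6 did not pass. Tcf7l1, the Tcf factor that mainly represses Wnt target genes, read 24740.3, 24967 and 24301 in Lasp1-/- arrays, against 29967, 39361 and 35487 in Lasp1+/+ arrays. The Lasp1-/- arrays lay close together and below all Lasp1+/+ arrays. The log2 difference was -0.49 ± 0.10 SE, or 1.41-fold lower (limma adjusted p = 0.0199). A second Tcf7l1 probe read 1799, 1309 and 1679 in Lasp1-/- arrays and 1826, 2020.4 and 2093 in Lasp1+/+ arrays, also without overlap (log2 difference -0.32, limma adjusted p = 0.192 over all probes). The call of Tcf7l1 was lost without Lasp1-/- replicate 2 (limma adjusted p = 0.0717), Lasp1-/- replicate 3 (0.106) or Lasp1+/+ replicate 3 (0.107) and after normexp (0.157), with log2 differences of -0.50, -0.48, -0.48 and -0.50.

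Ctnnb1, the gene of beta-catenin, read 27686, 27151 and 25931 in Lasp1-/- arrays, against 26737, 26727 and 21935 in Lasp1+/+ arrays, with a log2 difference of 0.10 and a 95% limma interval of -0.10 to 0.31. Axin1, the scaffold of the destruction complex, differed by 0.07 (interval -0.10 to 0.24). Tcf7l2 averaged 8826 ± 1293.4 in Lasp1-/- arrays and 10353 ± 1154.2 in Lasp1+/+ arrays (SD, n = 3 each, log2 difference -0.24, limma adjusted p = 0.361). Its other 5 probes lay between 772 and 1354.

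Axin2, Nkd1 and Lef1 are themselves switched on by beta-catenin in many tissues and serve as readouts of that branch. Axin2 read 2351, 2045 and 1937 in Lasp1-/- arrays, against 2153, 2489 and 2224 in Lasp1+/+ arrays, which overlap (log2 difference -0.12, 95% limma interval -0.33 to 0.10, adjusted p = 0.609). Nkd1 read 2217, 2250.0 and 2456 in Lasp1-/- arrays, against 2189.5, 2927 and 2757.5 in Lasp1+/+ arrays, which overlap too (-0.18, interval -0.43 to 0.07, limma adjusted p = 0.479). Lef1 was near the probe median in both genotypes, at 1009 ± 86.4 in Lasp1-/- arrays and 1002 ± 13.5 in Lasp1+/+ arrays (SD, n = 3 each).

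**Figure D3:**
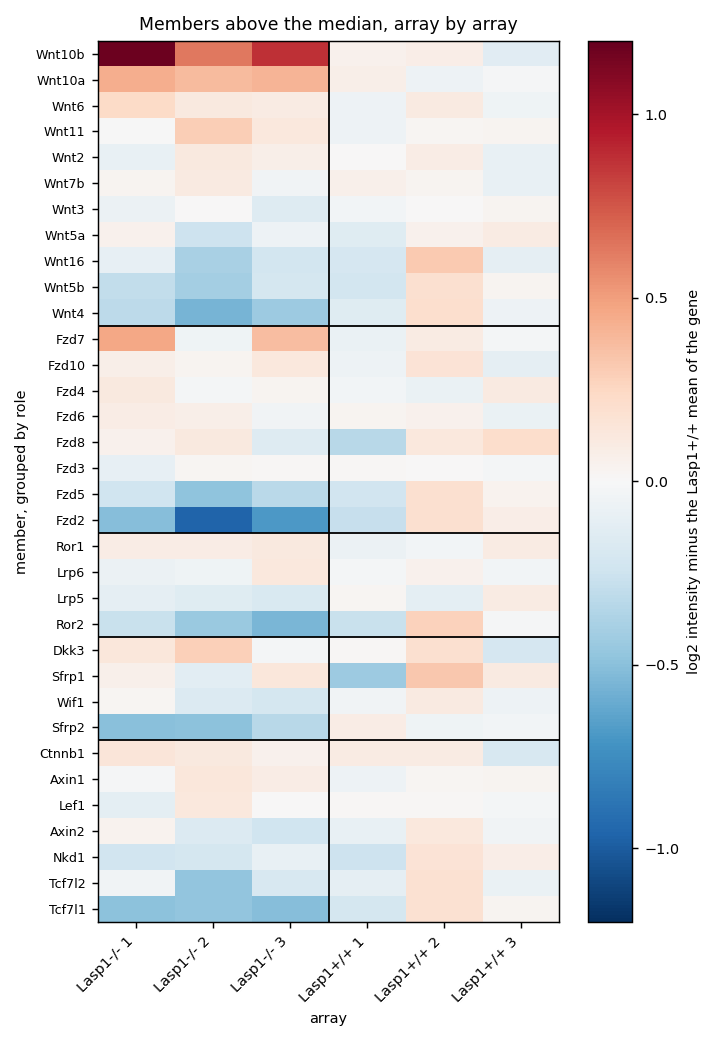
Log2 intensity minus the mean of the Lasp1+/+ arrays for each of the 34 Wnt genes above the probe median in at least 1 genotype, with an array per column (Lasp1-/- left of the line, Lasp1+/+ right) and roles separated by horizontal lines. Red is above and blue below the Lasp1+/+ mean. Lasp1+/+ replicate 2 is the highest Lasp1+/+ array in 20 of the 34 genes.

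Promoter sequences were set beside the expression values. RefSeq (GRCm38.p6) gave windows from 250 bases before to 50 after the start for 34 of the 49 genes, 42 windows in all, and for 4 of the 6 called genes; Fzd2 and Wnt10a had no entry. These 4 windows are written 5′ to 3′ on the gene's strand because these genes were called together, with the GC box GGGCGG, on either strand, in capitals.
Wnt10b, chr15:98778101-98778400, minus strand: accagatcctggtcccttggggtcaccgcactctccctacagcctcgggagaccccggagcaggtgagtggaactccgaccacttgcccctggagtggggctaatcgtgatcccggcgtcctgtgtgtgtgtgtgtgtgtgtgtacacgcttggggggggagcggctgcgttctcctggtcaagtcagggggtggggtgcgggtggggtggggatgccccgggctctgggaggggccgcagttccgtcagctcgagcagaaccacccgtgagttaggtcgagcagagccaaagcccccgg
Sfrp2, chr3:83766071-83766370, plus strand: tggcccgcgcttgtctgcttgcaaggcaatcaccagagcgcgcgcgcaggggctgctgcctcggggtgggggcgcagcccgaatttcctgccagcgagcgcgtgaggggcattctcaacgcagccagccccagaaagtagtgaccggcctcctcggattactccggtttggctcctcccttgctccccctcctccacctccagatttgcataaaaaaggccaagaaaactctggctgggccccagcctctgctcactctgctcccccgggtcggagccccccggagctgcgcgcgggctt
Wnt4, chr4:137277385-137277684, plus strand: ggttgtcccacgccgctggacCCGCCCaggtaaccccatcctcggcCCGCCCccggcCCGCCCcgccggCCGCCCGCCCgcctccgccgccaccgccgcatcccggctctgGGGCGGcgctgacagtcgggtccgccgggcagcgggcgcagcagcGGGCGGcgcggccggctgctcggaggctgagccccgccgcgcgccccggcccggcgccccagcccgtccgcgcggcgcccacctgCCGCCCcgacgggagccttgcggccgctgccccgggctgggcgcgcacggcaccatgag
Tcf7l1, chr6:72788996-72789295, minus strand: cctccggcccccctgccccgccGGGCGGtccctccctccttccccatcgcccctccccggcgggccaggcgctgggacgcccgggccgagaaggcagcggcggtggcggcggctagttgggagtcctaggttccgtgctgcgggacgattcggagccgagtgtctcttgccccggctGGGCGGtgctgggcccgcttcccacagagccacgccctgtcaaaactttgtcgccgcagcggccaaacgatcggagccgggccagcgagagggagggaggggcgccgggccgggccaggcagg

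The Wnt4 window held 8 GC boxes, of which 2 overlap, and 84.3% G and C, and the Tcf7l1 window held 2 GC boxes and 75.3% G and C. The Wnt10b and Sfrp2 windows held no GC box, at 66.3% and 66.0% G and C. Over the 42 windows of the Wnt genes the median was 67.3% G and C, against 52.7% over all 32851 windows, and 32 of the 42 (76.2%) held a GC box, against 35.7% of all windows. Forms of the site that Tcf and Lef factors bind, spelled CTTTG followed by AA, AT, TA or TT, were searched on both strands. They were found in 7 of the 42 windows (16.7%) and in 16.9% of all windows, and in none of the 4 written out. The TATA box TATAAA, on either strand, stood in 8 of the 42 windows (19.0%) and in 13.6% of all windows, and in none of the 4. The windows of 1 gene can overlap, and a match or its absence in 300 bases is a description of these letters only.

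Outside the set, 133 other genes of the pathway were measured out of 145 listed in 6 groups. Of these 6 rose, 11 fell and 116 did not pass, and their median log2 difference was -0.04 against -0.02 for all genes. The called share was 12.8%, beside 6.28% of all genes and 9.48% of genes above the probe median in 1 or both genotypes. Of the 133 genes, 115 were above that median in 1 or both genotypes, all called ones among them. The lists were chosen with earlier results of these data known, so this share is a description only. The calls that held without each array in turn were Fst, Tle4, Lgr5, Nkd2, Ccn4 and Twist1, and the other 11 were lost without at least 1 array. Of the 17 called genes, 11, 7 and 6 remained called without Lasp1-/- replicates 1, 2 and 3, and 15, 15 and 6 without Lasp1+/+ replicates 1, 2 and 3.

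Among 36 textbook targets of beta-catenin, 1 rose, 6 fell and 29 did not pass. Nkd2, a Naked cuticle protein that binds Dishevelled and dampens Wnt signalling, read 3502.5, 2763.5 and 3069.9 in Lasp1-/- arrays, against 5176, 6982 and 5512 in Lasp1+/+ arrays (log2 difference -0.91 ± 0.13 SE, limma adjusted p = 0.00306). The groups were far apart at its single probe. The matricellular gene Ccn4 (-0.77 ± 0.07), the mesenchymal transcription factor Twist1 (-0.77 ± 0.09) and the R-spondin receptor Lgr5 (-2.65 ± 0.15) fell as well. Fst, the gene of the activin antagonist follistatin, rose and read 12719, 9105 and 11264 in Lasp1-/- arrays, against 4171, 4817 and 4305 in Lasp1+/+ arrays (1.30 ± 0.12 SE, limma adjusted p = 0.000352). The log2 differences of Ccnd1 and Myc, 2 cell cycle targets, were -0.01 (95% limma interval -0.26 to 0.23) and -0.09 (-0.28 to 0.10). Myc was dim, at means of 1337 in Lasp1-/- and 1420 in Lasp1+/+ arrays. Birc5 was lower in every Lasp1-/- array at each of its probes. Its brightest probe did not pass (-0.45, limma adjusted p = 0.0569 over all probes), and the others did (-0.47 and -0.50, 0.00875 and 0.0211). Other uncalled targets had groups apart in both directions, such as Ccn5 (0.37) and Irx3 (-0.46). Sp5, Rnf43, Znrf3, Tnfrsf19, Cdx2 and Mmp7 were at or below the probe median in both genotypes.

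**Figure D4:**
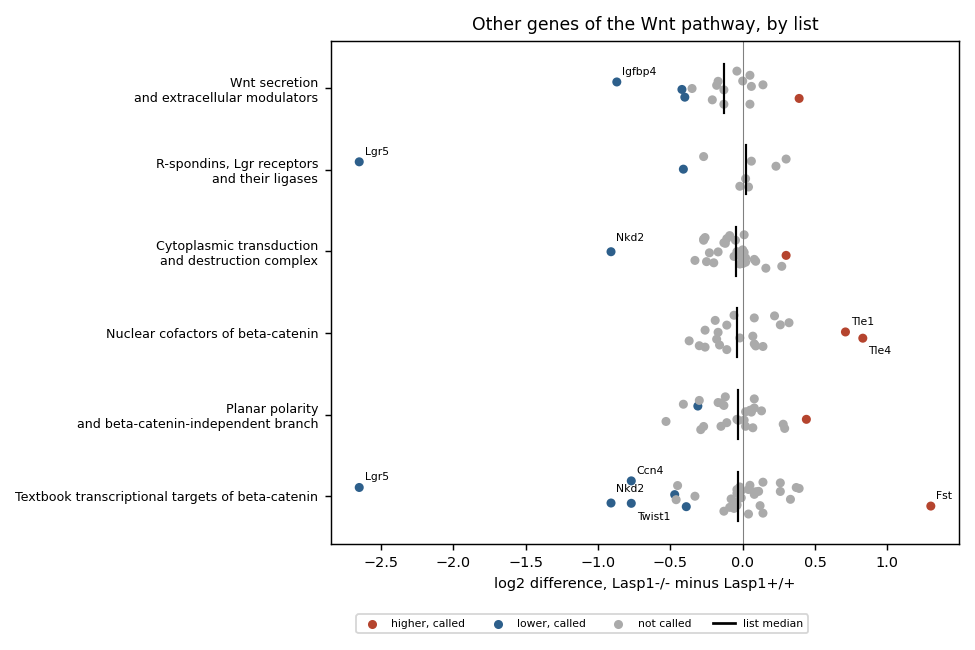
Log2 difference (Lasp1-/- minus Lasp1+/+, horizontal axis) of other Wnt pathway genes in 6 lists, with a point for each gene, red or blue where it passed the test and grey where it did not, and a bar at the list median. Lgr5 and Nkd2 stand in 2 lists each. Tle1 and Tle4, at 0.71 and 0.83, are the called nuclear cofactors.

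Of 22 nuclear cofactors of beta-catenin, 2 rose, 0 fell and 20 did not pass in limma. An unadjusted limma p under 0.05 was found for 7, and the share of all genes at that threshold is not given here. Both called genes code for Groucho co-repressors, which bind Tcf factors in the absence of beta-catenin. Tle4 read 10485, 10727 and 8245 in Lasp1-/- arrays, against 6278, 5216 and 5051 in Lasp1+/+ arrays (0.83 ± 0.12 SE, limma adjusted p = 0.00409). Tle1 read 19878, 15201 and 16445 in Lasp1-/- arrays, against 8896, 12282 and 10356 in Lasp1+/+ arrays (0.71 ± 0.13 SE, limma adjusted p = 0.0144). The groups did not overlap at either gene. The limma adjusted p of Tle1 was 0.073 without Lasp1-/- replicate 3 (log2 difference 0.74) and 0.0823 without Lasp1+/+ replicate 3 (0.71).

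Of 16 genes of Wnt secretion and extracellular modulation, 1 rose and 3 fell. The insulin-like growth factor binding protein Igfbp4 (-0.87 ± 0.16), the secreted serpin Serpinf1 (-0.42 ± 0.10) and the membrane protein Tpbg (-0.40 ± 0.09) fell, and the glypican Gpc3 rose (0.39 ± 0.10). The 5 probes of Wls, which carries Wnts to the cell surface, gave different answers. The brightest averaged 38484 in Lasp1-/- arrays and 41977 in Lasp1+/+ arrays (log2 difference -0.13, 95% limma interval -0.32 to 0.06), and the next 2 by brightness differed by -0.12 and 0.04 without passing. The remaining 2 were higher in every Lasp1-/- array, at means of 15235 in Lasp1-/- and 8268 in Lasp1+/+ arrays (0.90, limma adjusted p = 0.0182 over all probes) and of 4542 in Lasp1-/- and 2784 in Lasp1+/+ arrays (0.71, limma adjusted p = 0.0091 over all probes). No direction is given for Wls as a gene, whose mean over probes differed by 0.28 (limma adjusted p = 0.0878). Porcn, which lipidates Wnts, differed by -0.35 ± 0.13 SE (limma adjusted p = 0.159). Of 9 R-spondin pathway genes, Lgr5 and Lgr6 (-0.41 ± 0.09) fell. Of 30 cytoplasmic genes, Nkd2 fell, the kinase gene Csnk1e rose (0.30 ± 0.08, limma adjusted p = 0.0496) and 28 did not pass, among them Gsk3b (-0.26 ± 0.12), Apc (-0.27 ± 0.13) and Dvl1 (0.08 ± 0.20). Of 27 genes of the beta-catenin-independent branch, Camk2g rose (0.44 ± 0.09) and Nfatc1 fell (-0.31 ± 0.07), both at the brightest probe. With the mean over all probes of a gene in place of its brightest, 5 of the genes named in this paragraph lost their calls in limma: Nfatc1 (-0.02, adjusted p = 0.89), Camk2g (0.32, 0.111), Csnk1e (0.21, 0.434), Gpc3 (0.29, 0.0726) and Lgr6 (-0.17, 0.139). After quantile normalization Nfatc1 lost its call as well (-0.28, limma adjusted p = 0.0577). Ptk7, Vangl2 and Ryk, receptors and membrane proteins of that branch, differed by -0.41 ± 0.11, -0.29 ± 0.09 and -0.27 ± 0.10 SE without passing (limma adjusted p of 0.0626, 0.105 and 0.161). The groups did not overlap at the brightest probe of any of the 3. Such groups were found in 27.6% of all genes above the probe median in 1 or both genotypes. A second bright Ryk probe overlapped (-0.13). Other uncalled genes of the branch had groups apart in both directions, such as Prickle2 (0.29) and Rac1 (-0.53). After quantile normalization Ptk7 passed (-0.31, limma adjusted p = 0.0127).

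Markers of other cell types were read on the same arrays. Of 6 adipocyte markers, Adipoq and Lpl fell (-2.02 ± 0.10 and -1.49 ± 0.12), 4 did not pass, and Fabp4 and Plin1 were at or below the probe median in both genotypes. The summed intensity of the adipocyte list was 24478 to 29812 in Lasp1-/- arrays and 58279 to 72172 in Lasp1+/+ arrays. Such sums are weighted to their brightest genes and do not show that a whole list shifted. Lpl alone averaged 19739 in Lasp1-/- and 55330 in Lasp1+/+ arrays. In the epithelial list Krt14 averaged 2565 and 15557, and in the muscle list Acta1 averaged 12873 and 4546, in the same order. In the chondrocyte list Col2a1 averaged 18527 and 1207, and Sox9 34290 and 47448, again in that order. Of 10 chondrocyte markers, Col2a1, Sox5 and Sox6 rose, Sox9 fell and 6 did not pass, with Matn1, Matn3 and Hapln1 at or below the median in both, and sums of 68138 to 78449 in Lasp1-/- arrays and 54015 to 62545 in Lasp1+/+ arrays. The Sox6 rise rests on its brightest probe, at means of 1215 in Lasp1-/- and 958 in Lasp1+/+ arrays (0.34, limma adjusted p = 0.0492 over all probes). At its other probes the groups overlapped. Of 10 epithelial markers, Krt14, Krt8 and Krt19 fell, with sums of 13566 to 14304 in Lasp1-/- arrays and 26320 to 31269 in Lasp1+/+ arrays, and Krt5 and Epcam at or below the median in both. Krt18 and Cldn4 were higher in every Lasp1-/- array without passing (0.18 and 0.31, limma adjusted p of 0.258 and 0.0628 over all probes). Of 4 osteoblast markers Ibsp rose, with Sp7 and Bglap at or below the median in both, and sums of 4462 to 4842 in Lasp1-/- arrays and 3944 to 4052 in Lasp1+/+ arrays. Of 7 skeletal muscle markers Acta1 rose (1.52 ± 0.14), with Myod1, Myf5 and Ckm at or below the median in both, and sums of 22306 to 23389 in Lasp1-/- arrays and 12806 to 14454 in Lasp1+/+ arrays. Of 6 macrophage and leukocyte markers Lyz2 rose (0.56 ± 0.10), with Ptprc at or below the median in both, and sums of 11940 to 12815 in Lasp1-/- arrays and 9004 to 10381 in Lasp1+/+ arrays. Of 7 endothelial markers Emcn rose (0.62 ± 0.09), with Cdh5, Tie1 and Vwf at or below the median in both, and sums of 10044 to 10526 in Lasp1-/- arrays and 9186 to 9695 in Lasp1+/+ arrays. Emcn alone averaged 3634 in Lasp1-/- and 2367 in Lasp1+/+ arrays. The endothelial marker Tek went the other way without passing, at means of 1750 and 2147 in the same order. It was lower in every Lasp1-/- array (-0.29, limma adjusted p = 0.0813 over all probes). Of 7 neural markers Nes rose (1.32 ± 0.11) and Sox10 fell (-0.60 ± 0.14), with Sox2 and Pax6 at or below the median in both, and sums that overlapped. The part of these cell types in the Wnt gene differences was not tested, and in RNA of whole cultures fewer cells of a type and less RNA per cell cannot be told apart.

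**Figure D5:**
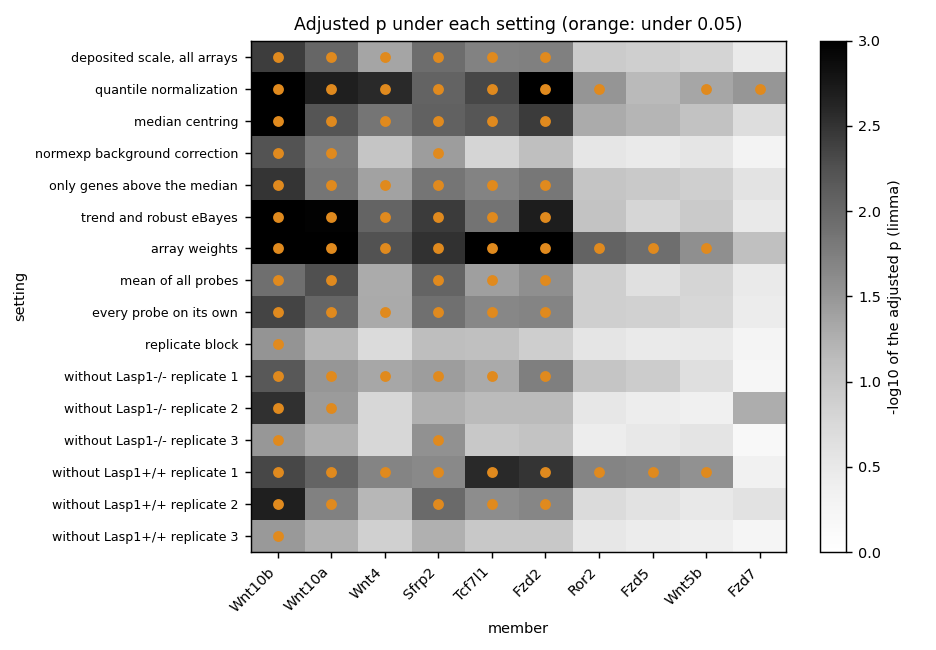
Adjusted p (as -log10, grey scale) of the 6 called Wnt genes and of Ror2, Fzd5, Wnt5b and Fzd7, with a processing setting per row, the deposited scale with all 6 arrays on top. Orange points mark an adjusted p under 0.05. Wnt10b is marked in every row, and under the replicate block it is the only gene marked. Wnt4, Fzd2 and Tcf7l1 lose the mark after normexp and without Lasp1-/- replicate 2, Lasp1-/- replicate 3 or Lasp1+/+ replicate 3. Sfrp2 loses it without Lasp1-/- replicate 2 or Lasp1+/+ replicate 3, and Wnt10a without Lasp1-/- replicate 3 or Lasp1+/+ replicate 3.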

How the data were processed

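RNA levels were measured on 6 arrays, 3 of Lasp1-/- and 3 of Lasp1+/+ fibroblasts. The values deposited by the authors are linear intensities of 45281 probes, with a median of 1000.0 on each array. The sources used here name no scanner, software or background step. The platform annotation gave 1 symbol for 34885 probes, more than 1 for 18 and no symbol for 10378. The probe with the highest mean stood for each gene. Genotype was the only term of a linear model of log2 intensity (limma 3.58.1 under R 4.3.3, with eBayes) over all 19057 genes, with two-sided p-values adjusted by Benjamini-Hochberg. Differences are Lasp1-/- minus Lasp1+/+. Tests were checked on simulated data.

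Alternatives were quantile normalization, median centring, normexp (offset 50), a filter on dim genes, trend and robust estimation, array weights, other probe rules, a replicate block and leaving out each array. Genes passing the test, or with groups apart, were to be given array by array if above the probe median, and up to 4 genes per direction named in each wider list. Genes of the wider lists and markers printed without passing were picked after their values were seen. The members and lists, markers included, were chosen with earlier results of these data known. Arrays give no counts, and their number limits the precision.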

Additional observations from a re-analysis of the deposited data

How the results depend on the processing

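None of the 6 called Wnt genes changed direction under the alternatives, and Lasp1 and Wnt10b kept their calls in all of them. Over all genes 1196 were called, against 2092 after quantile normalization (1009 higher and 1083 lower, in place of 418 and 778), 538 after normexp, 3267 with array weights and 463 (without Lasp1-/- replicate 3) to 1594 (without Lasp1+/+ replicate 1) without single arrays. Among the 49 Wnt genes the 2 rises were 1 to 2 without single arrays, and the 4 falls were 1 after normexp, 9 with array weights and 0 to 7 without single arrays. Where limma called 0 falls, without Lasp1-/- replicate 2 or Lasp1+/+ replicate 3, 5 and 6 genes were lower at an unadjusted p under 0.05. The share of all genes at that threshold is not given here, so these counts do not set the Wnt genes apart. Array weights added Ror2, Fzd5, Wnt5b, Wnt7a and Lrp5. Among wider pathway genes the 6 rises were 14 after quantile normalization, 2 after normexp, 15 with array weights and 2 to 11 without single arrays, and the 11 falls were 18 after median centring, 6 after normexp, 30 with array weights and 4 to 17 without single arrays. The cause of these shifts was not tested.

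Arrays of the 2 genotypes share only a replicate number. Deviations of same-numbered arrays from their group means correlated at -0.414, -0.338 and 0.224, and not every array correlated best with its own number. Lasp1-/- replicate 1 correlated best with Lasp1+/+ replicate 2 (0.471), and Lasp1-/- replicate 2 with Lasp1+/+ replicate 1 (0.395). With the number as a replicate block, limma called 415 genes, 1 Wnt gene as higher (Wnt10b) and 0 as lower, and 2 wider genes as higher and 3 as lower. In that fit 7 Wnt genes were lower at an unadjusted limma p under 0.05, again without the share of all genes beside it. Low signal limits the 15 Wnt genes at or below the probe median in both genotypes.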

Other observations

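Several Wnt genes lie next to each other in the order of protein-coding genes in the RefSeq table: Wnt6 with Wnt10a, Wnt10b with Wnt1, Wnt3a with Wnt9a, and Wnt9b with Wnt3. Of these 8 genes limma called Wnt10a and Wnt10b. Wnt6, the neighbour of Wnt10a, read 1014, 944 and 1021 in Lasp1-/- arrays, against 895, 834 and 900.2 in Lasp1+/+ arrays at one probe, and 991, 1135 and 1157, against 974, 910.3 and 926, at another. The groups did not overlap at these dimmer probes, and at the third and brightest Wnt6 probe they did. At the brightest probe of each gene, groups were apart in 21.3% of all genes. Dimmer probes of Fzd3 and Wnt9b had groups apart too, lower in Lasp1-/- arrays. All 3 Wnt6 probes are near the probe median, and none passed (limma adjusted p of 0.188 to 0.396 over all probes, log2 differences of 0.15 to 0.22). Wnt1, the neighbour of Wnt10b, read 948, 871 and 961 in Lasp1-/- arrays and 885, 883 and 862 in Lasp1+/+ arrays, which overlap below the probe median.

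The 4 Ctnnb1 probes gave differences of both signs, none of which passed. The second brightest read 20317, 20640.2 and 20115 in Lasp1-/- arrays, against 25206, 21866.5 and 20823 in Lasp1+/+ arrays, lower in every Lasp1-/- array but without passing (log2 difference -0.15, limma adjusted p = 0.452 over all probes), where the brightest differed by 0.10 with overlap. A probe annotated to a separate transcript record read 5670 in Lasp1-/- replicate 1, 3377 in replicate 2 and 4134.5 in replicate 3, against 2162, 4349 and 2225.5 in Lasp1+/+ arrays. Lasp1+/+ replicate 2 lay inside the Lasp1-/- range, and the difference did not pass (log2 difference 0.64, limma adjusted p = 0.265 over all probes). The arrays with the highest readings in each genotype there are Lasp1-/- replicate 1 and Lasp1+/+ replicate 2, which were also highest in most genes. The part of that difference between arrays in the readings of this probe was not tested.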
